A study of Mus musculus with 9 samples.

Results

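The genes of cholesterol synthesis, cholesterol uptake and sterol handling were described here in mouse liver: 29 genes out of 45513 in the count table. They were chosen by name for their known role, though with earlier results of these data known. Each was found by matching its Ensembl gene ID to a symbol. All 29 passed the filter on low counts, as did 12102 genes in all. They were read in 4 roles: 7 genes of the mevalonate arm (Acat2, Hmgcs1, Mvk, Pmvk, Mvd, Idi1 and Fdps), 12 genes of the squalene and sterol arm (Fdft1, Sqle, Lss, Cyp51, Tm7sf2, Lbr, Msmo1, Nsdhl, Hsd17b7, Ebp, Sc5d and Dhcr7), 5 genes that control the pathway or uptake (Srebf2, Scap, Insig1, Insig2 and Mylip) and 5 genes of uptake and intracellular handling (Stard4, Soat2, Npc1, Npc2 and Scarb1).

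The livers came from C57BL/6 mice kept for 9 weeks in 3 groups of 3: a normal diet with vehicle, a high fat diet with vehicle, and a high fat diet plus B-LGND2. This compound is named in the labels by code only, and the series title speaks of an estrogen receptor beta ligand. All mice were of 1 strain, and the labels name no altered allele. For dose, route, diet composition, age and sex, nothing is given in the sources used here. RNA was enriched for polyadenylated transcripts and sequenced as 1 library per mouse, and 5778978 to 10322972 reads were counted per library. The labels name no batch, and each p therefore rests on the spread among these 9 samples alone.

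The liver makes cholesterol from acetyl-CoA. The mevalonate arm joins acetyl units and builds the isoprenoid farnesyl diphosphate, and the squalene and sterol arm joins farnesyl units into squalene, closes the rings to lanosterol and trims lanosterol to cholesterol. Most genes of both arms are known targets of SREBP2, the transcription factor encoded by Srebf2. SREBP2 is held in the endoplasmic reticulum membrane with its escort SCAP and the anchoring proteins INSIG1 and INSIG2 while sterols are plentiful, and it is released, cleaved and sent to the nucleus when sterols run low. Insig1 is itself an SREBP target, whereas Insig2 in liver is less dependent on SREBP.

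The stretch just before the start site is where SREBP2 and its partner factors are known to bind, so the promoters of 4 genes are shown as examples. Hmgcs1, Cyp51 and Mvd were called in at least 1 comparison, and Insig1, the pathway's own feedback gene, was not. Of the other called genes, Msmo1 and Acat2 are not shown, and Fdft1 had no window in the promoter source. Each sequence is the 250 bases before the annotated start, 5′ to 3′ on the gene's own strand, from RefSeq on GRCm38.p6, and capitals mark matches on either strand to TCACNCCAC (a core of the sterol regulatory element), CCAAT (the NF-Y box) and GGGCGG (the Sp1 box).
Hmgcs1: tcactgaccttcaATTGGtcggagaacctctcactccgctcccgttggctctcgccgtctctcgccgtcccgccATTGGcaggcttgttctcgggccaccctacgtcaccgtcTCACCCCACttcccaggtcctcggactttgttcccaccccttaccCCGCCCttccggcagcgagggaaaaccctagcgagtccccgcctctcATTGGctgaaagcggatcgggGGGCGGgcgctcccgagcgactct
Cyp51: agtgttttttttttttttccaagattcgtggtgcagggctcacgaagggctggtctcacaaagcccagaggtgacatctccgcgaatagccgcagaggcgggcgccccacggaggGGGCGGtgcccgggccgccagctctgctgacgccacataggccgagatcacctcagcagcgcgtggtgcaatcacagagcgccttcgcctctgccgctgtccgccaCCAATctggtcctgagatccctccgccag
Mvd: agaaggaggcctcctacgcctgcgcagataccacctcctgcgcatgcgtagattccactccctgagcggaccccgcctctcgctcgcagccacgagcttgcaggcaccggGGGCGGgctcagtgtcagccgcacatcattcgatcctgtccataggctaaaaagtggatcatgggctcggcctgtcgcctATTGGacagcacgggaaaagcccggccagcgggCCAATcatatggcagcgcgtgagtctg
Insig1: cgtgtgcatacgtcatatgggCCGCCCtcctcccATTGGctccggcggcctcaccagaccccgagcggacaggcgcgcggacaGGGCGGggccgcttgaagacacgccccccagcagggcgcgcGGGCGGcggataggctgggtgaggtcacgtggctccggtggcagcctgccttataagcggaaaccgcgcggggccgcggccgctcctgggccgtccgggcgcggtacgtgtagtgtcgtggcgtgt
The windows lie at chr13:119690101-119690350 on the plus strand (Hmgcs1), chr5:4104698-4104947 on the minus strand (Cyp51), chr8:122443423-122443672 on the minus strand (Mvd) and chr5:28071162-28071411 on the plus strand (Insig1). Hmgcs1 carried the sterol element core as TCACCCCAC, 137 bases before the start. Over windows of 300 bases (250 before to 50 after the start), 22 of the 29 genes had a window, 28 windows in all, and no match overlapped another. Without a window were Fdft1, Sqle, Fdps, Stard4, Soat2, Npc1 and Scarb1. The sterol element core was in 1 of 22 genes (4.55%) against 1.48% of 8604 protein-coding genes that were tested, and 1.44% of all 27025 genes with a window. The CCAAT box was in 20 of 22 genes (90.9%) against 42.6% of tested protein-coding genes and 41.1% of all genes with a window. The GGGCGG box was in 21 of 22 (95.5%) against 68.7% and 38.2%. These are counts of letters in a window, a description of the genes and not of binding.

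Levels are counts per 1000000 counts (CPM) on composition-scaled library sizes, given as mean ± SD of the 3 libraries of a group. A gene was called changed where the Benjamini-Hochberg adjusted p of edgeR's quasi-likelihood test, over all 12102 genes, was under 0.05, and log2 fold changes are given with their standard error (SE). Adjusted p-values throughout are from that test. The libraries differed in ways that touch every gene. Reads of ribosomal RNA gene models made up 3.16% to 3.74% of counts on the normal diet, 0.901% to 1.44% on the high fat diet with vehicle and 4.31% to 6.19% with B-LGND2. Mitochondrially encoded genes made up 12.7% of counts in normal diet replicate 1 and 3.69% to 6.12% elsewhere. Across genes, a library's deviation from the mean level was correlated with the length of all annotated exons of a gene merged. The Spearman value ran from 0.285 to 0.352 on the high fat diet with vehicle. It ran from -0.453 to 0.222 on the normal diet and from -0.262 to 0.0575 with B-LGND2. With GC content, B-LGND2 replicate 1 stood apart at 0.503, while the other 8 libraries ran from -0.25 to 0.0814. The 6 hepatocyte markers summed to 51849 to 71290 CPM per library and none was called in any comparison, while 10 of 12 macrophage markers were higher with B-LGND2 than with vehicle on the high fat diet and 9 of 12 than on the normal diet with vehicle. Their summed level was 1171 to 1503 CPM with B-LGND2, 329 to 443 CPM on the high fat diet with vehicle and 352 to 600 CPM on the normal diet. Of 8 endothelial markers, 1 was higher with B-LGND2 than with vehicle on the high fat diet and 3 than on the normal diet, and their sum was 207 to 231 CPM with B-LGND2 against 121 to 188 CPM in the 6 other libraries. The part of these differences in the sterol gene results was not tested beyond the alternative fits named below. In whole liver RNA, fewer cells of a type and less RNA per cell cannot be told apart.

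Levels on the normal diet differed widely between the genes. They are given per kilobase of all annotated exons of a gene merged, which can be longer than its main transcript. On this measure Ebp, an isomerase late in the sterol arm, had the highest level of the 29 genes (148 CPM per kb). It was followed by the desaturase gene Sc5d (60.3), Msmo1 (49.6) and Nsdhl (44.2). Idi1, the isopentenyl diphosphate isomerase gene, had the lowest (0.45 CPM per kb), with 0 to 13 counts per library (a count of 0, in high fat vehicle replicate 1, allows up to 3). Fdps, which makes farnesyl diphosphate, stood at 3.54 CPM per kb. Idi1 and Fdps have near-identical copies in the genome, so the share of their reads that was counted is uncertain. The controlling genes lay between, from 3.05 CPM per kb for Mylip to 33.3 for Insig2.

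**Figure D1:**
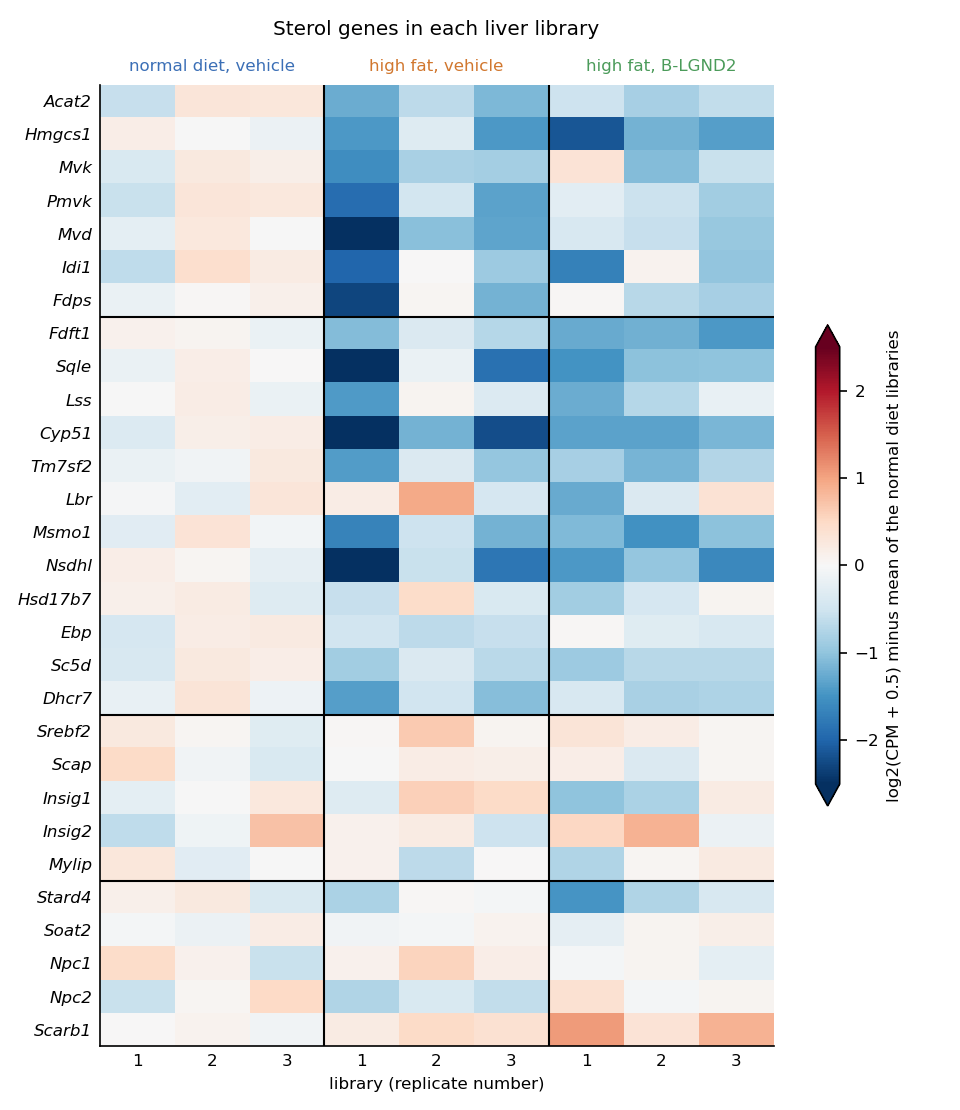
Colour shows log2(CPM + 0.5) minus the mean of the 3 normal diet libraries for each of the 29 genes (lines) in each of the 9 libraries (columns), with black lines between the 4 roles. Most cells of both synthesis arms are blue in the 6 high fat libraries, and values are higher in vehicle replicate 2 than in vehicle replicate 1 for all of these genes but Ebp, with single cells above 0 for Mvk, Idi1, Fdps, Lss, Lbr, Hsd17b7 and Ebp, while the controlling and handling genes show no common colour.

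The first comparison, high fat against normal diet under vehicle, asks what the diet did. The summed level of the synthesis genes was lower on the high fat diet: the 19 genes of both arms came to 1634, 2222 and 2026 CPM in the normal diet libraries and to 797, 1378 and 954 CPM in the high fat vehicle libraries. No high fat library reached the lowest normal diet library. Of the 29 genes, 4 fell (Cyp51, Mvd, Msmo1 and Acat2) and 0 rose, where 1.49% of all tested genes fell and 1.5% rose. Values were below 0 on the log2 scale for 23 of 29 genes (49.6% of all genes tested), and the median was -0.65 against 0.01 over all genes. The groups did not overlap, with the high fat side lower, for 12 of the 29, where 14.8% of all genes did so.

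Cyp51 encodes lanosterol demethylase, the first step after ring closure (ENSMUSG00000001467, chr5:4081145-4104746, GRCm38). It stood at 148, 209 and 214 CPM on the normal diet and at 29.02, 82.7 and 40.1 CPM on the high fat diet with vehicle. Every high fat vehicle library was below every normal diet library. The mean fell 3.76-fold, from 190.1 ± 36.6 to 50.6 ± 28.3 CPM (log2 fold change -1.91, SE 0.31, adjusted p = 0.00703). Msmo1, a methylsterol monooxygenase gene of a later step (ENSMUSG00000031604, chr8:64718139-64733792), had 248, 381 and 285 CPM on the normal diet and 93.7, 209 and 132 CPM on the high fat diet. These groups did not overlap either, although high fat replicate 2 came close to normal diet replicate 1. Msmo1 fell 2.10-fold (log2 fold change -1.07, SE 0.28, adjusted p = 0.0463).

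In the mevalonate arm, Mvd, the decarboxylase gene that makes isopentenyl diphosphate (ENSMUSG00000006517, chr8:122433601-122443422), had 11.1, 15.9 and 13.1 CPM on the normal diet. On the high fat diet with vehicle it had 0.989, 6.17 and 5.02 CPM, from 6, 41 and 36 counts. All 3 lay below the normal diet range, and replicate 1 was lowest by far. Mvd fell by 1.70 on the log2 scale (SE 0.42, adjusted p = 0.0398). Acat2, the cytosolic thiolase gene at the head of the pathway (ENSMUSG00000023832, chr17:12942890-12960747), had 39.5, 73.6 and 72.1 CPM against 24.9, 37.7 and 27.0 CPM. The groups were narrowly apart, since normal diet replicate 1 was far below its fellows. Acat2 fell 2.06-fold (log2 fold change -1.04, SE 0.26, adjusted p = 0.0427).

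The other 5 genes of the mevalonate arm had log2 fold changes from -1.18 (Pmvk, phosphomevalonate kinase, adjusted p = 0.0623) to -0.87 (Fdps, 0.253), so that all 7 were below 0 with a median of -1.08, and none but Mvd and Acat2 passed the threshold. In the squalene and sterol arm 11 of 12 genes were below 0, with a median of -0.79. Just short of the threshold were Dhcr7, the reductase gene of a final step (-0.94, adjusted p = 0.0531), and Nsdhl, a sterol dehydrogenase gene (-1.44, 0.0600). Tm7sf2, a sterol reductase gene, had -0.86 (0.0709), and Sqle, encoding squalene epoxidase, had -1.20 with the wide SE of 0.47 (0.153). Lbr, a lamin-binding protein with the same reductase activity as the Tm7sf2 product, was the only gene of the arm above 0 (0.35, SE 0.46). Hsd17b7, a ketosteroid reductase gene, had -0.12 (SE 0.30) and Lss, the ring-closing lanosterol synthase gene, had -0.45 (SE 0.33). At an unadjusted p under 0.05, 15 of 29 genes were lower (11.8% of all genes) and 0 higher (10.6%).

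The controlling and handling genes had values around 0. Srebf2 had 61.1, 53.1 and 41.4 CPM on the normal diet and 51.9, 80.9 and 53.9 CPM on the high fat diet with vehicle. The groups overlapped, and the log2 fold change was 0.26 (SE 0.23, adjusted p = 0.532). Scap had 170, 115 and 93.5 CPM against 121, 139 and 135 CPM (0.06, SE 0.24), and again the ranges overlapped. Insig1 had 63.6, 74.9 and 90.5 CPM against 60.03, 114 and 105 CPM. Its log2 fold change of 0.28 (SE 0.31, adjusted p = 0.615) was on the other side of 0 from those of most enzymes. Insig2 had 68.5, 99.9 and 179 CPM against 115, 123 and 75.0 CPM, and Mylip, a ubiquitin ligase gene that limits lipoprotein uptake, had 12.0, 7.94 and 9.68 CPM against 10.6, 6.02 and 9.76 CPM. Both overlapped between groups. The 5 controlling genes had a median log2 fold change of 0.06 and the 5 handling genes one of -0.02. Of the handling genes, Scarb1, which encodes the HDL receptor SR-BI, was higher in every high fat vehicle library than in any normal diet library. It did not pass the threshold (0.36, SE 0.22, adjusted p = 0.342). It was the only 1 of the 29 genes without overlap on that side, where 15.4% of all genes did so. Npc2, which encodes a lysosomal cholesterol-binding protein, had -0.63 (SE 0.26, 0.156).

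The diet calls moved with single libraries. Cyp51 was called in 19 of 21 alternatives, and it missed the threshold without high fat vehicle replicate 3 (adjusted p = 0.0519) and with the ribosomal RNA share as a covariate (0.351). The number of sterol genes called was 11 without normal diet replicate 1, where 1860 of 12377 genes were called, and 6 without high fat vehicle replicate 2, where 66 of 12478 were. It was 0 without high fat vehicle replicate 3 (39 of 12358 genes) and 1, Cyp51, without any other single library (35 to 304 genes). Among the 9 fits without 1 library, Mvd and Acat2 were thus called only without normal diet replicate 1 (adjusted p up to 0.116 and 0.168 in the others). Msmo1 was called without that library or high fat vehicle replicate 2 (up to 0.181 in the others). Over all 21 alternatives, Mvd was called in 8, Acat2 in 7 and Msmo1 in 9. With offsets for merged exon length and GC content, 3 were called (Cyp51, Msmo1 and Dhcr7) and the median was -0.82.

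Within the high fat vehicle group the libraries differed from one another in 1 direction across these genes. Replicate 2 was highest of the 3 in 26 of the 29 genes (89.7%, against 32.3% of all genes tested) and replicate 1 was lowest in 24 of 29 (82.8%, against 33.7%). Sqle had 56, 366 and 119 counts in the 3 libraries, or 9.24, 55.0 and 16.6 CPM, so that replicate 2 was just below the normal diet range of 55.1 to 69.1 CPM. Nsdhl had 19.6, 85.0 and 35.3 CPM, Fdps 2.64, 15.3 and 6.27 CPM, and Hmgcs1 30.8, 66.9 and 30.8 CPM. In each case replicate 2 stood above both others. As a percentage of the mean, the SD of Sqle was 91.3% on the high fat diet with vehicle, 11.4% on the normal diet and 18.3% with B-LGND2. For Cyp51 the same 3 values were 56.0%, 19.2% and 7.88%. A weaker order was also seen on the normal diet. There replicate 1 was lowest in 16 of the 29 genes (55.2%, against 36.6% of all genes tested). Replicate 2 of that group was highest in 13 (44.8%, against 23.6%). With B-LGND2 no library was lowest in more than 37.9% of the 29 genes or highest in more than 41.4%.

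**Figure D2:**
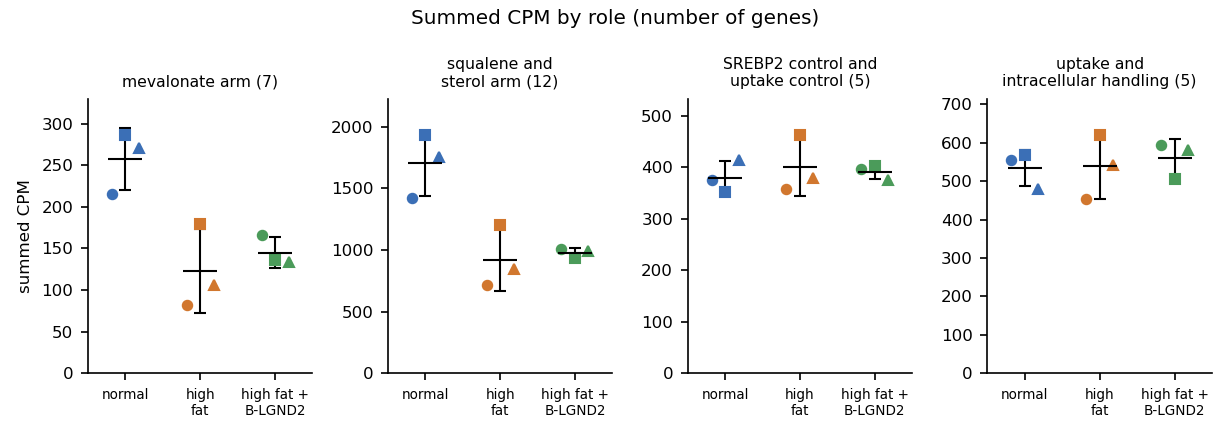
Each panel gives the summed CPM of a role's genes in each library, on axes from 0, with the group mean ± SD (n = 3) as bars and circle, square and triangle for replicates 1, 2 and 3. Both synthesis arms are lower in all 6 high fat libraries than in the normal diet libraries, the high fat vehicle libraries are spread with replicate 2 on top, and the other 2 roles overlap between all groups.

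The second comparison, of B-LGND2 with vehicle under high fat feeding, asks what the ligand did. It shares the high fat vehicle libraries with the first comparison, so the signs of the 2 are not independent of each other. None of the 29 genes was called, where 3.07% of all genes rose and 2.56% fell. At an unadjusted p under 0.05 by edgeR, 3 were higher (12.8% of all genes) and 2 lower (10.9%), and the DESeq2 Wald test called 0. The median log2 fold change was 0.02 against 0.00 over all genes, with 16 genes above 0 and 13 below (50.3% of all genes were below). The groups did not overlap for 3 genes on the higher side (Mvd, Ebp and Npc2; 16.4% of all genes) and 2 on the lower side (Fdft1 and Npc1; 17.2%). Summed over both synthesis arms the level was 1121 ± 52.9 CPM with B-LGND2 and 1043 ± 301 CPM with vehicle, and all 3 B-LGND2 libraries lay within the vehicle range.

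Within the pathway the values went both ways. In the mevalonate arm 6 of 7 genes were above 0, with a median of 0.42. Mvd had 9.85, 8.68 and 6.66 CPM with B-LGND2, above all 3 vehicle libraries and below all 3 normal diet libraries. Its log2 fold change against vehicle was 1.04 (SE 0.43, adjusted p = 0.15). Mvk, encoding mevalonate kinase, had 0.74 (SE 0.33, 0.188), with B-LGND2 replicate 1 at 44.5 CPM and the others at 16.3 and 23.8 CPM, which overlapped the vehicle range. The exception was Hmgcs1, the gene of cytosolic HMG-CoA synthase, with a log2 fold change of -0.56 (SE 0.31, adjusted p = 0.285).

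In the squalene and sterol arm 5 genes were above 0 and 7 below, with a median of -0.09. Cyp51 had 74.4, 73.4 and 84.4 CPM with B-LGND2, of which 2 were below the 82.7 CPM of vehicle replicate 2, so the groups overlapped. Its log2 fold change was 0.61 (SE 0.30, adjusted p = 0.235), with a 95% interval from -0.03 to 1.26. Fdft1, encoding squalene synthase, the first enzyme committed to sterols (ENSMUSG00000021273, chr14:63145150-63179578), had 12.0, 12.7 and 10.7 CPM against 13.7, 22.9 and 17.98 CPM with vehicle. The B-LGND2 libraries were all below the vehicle libraries, by little in the closest pair, and the log2 fold change was -0.62 (SE 0.25, adjusted p = 0.137; 95% interval -1.15 to -0.10). For Sqle the value was 0.02, and its 95% interval ran from -0.99 to 1.02, so that differences of about 2-fold either way remain within the error. Msmo1 had -0.15 (95% interval -0.73 to 0.43).

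Among the controlling genes, Insig1 had the lowest value. It stood at 37.4, 43.3 and 86.6 CPM with B-LGND2, so that 2 libraries were below the vehicle range of 60.03 to 114 CPM and replicate 3 was inside it. Its log2 fold change was -0.74 (SE 0.31, adjusted p = 0.156). It passed the threshold without B-LGND2 replicate 3 and with no filter on low counts, in both cases lower. Insig2 had 154, 196 and 96.9 CPM with B-LGND2 (0.51, SE 0.33, adjusted p = 0.359), Srebf2 63.7, 58.6 and 52.8 CPM (-0.09, SE 0.23), Scap 137, 95.1 and 127 CPM (-0.14, SE 0.24) and Mylip 5.56, 10.2 and 11.5 CPM (0.04, SE 0.33). Each of these 4 overlapped with vehicle.

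Of the handling genes, Npc2 had 123, 91.1 and 99.4 CPM with B-LGND2, all above the 56.2, 72.9 and 61.7 CPM of the vehicle libraries. Npc2 had a log2 fold change of 0.72 (SE 0.26, adjusted p = 0.10), and it passed the threshold in 3 alternatives: without normal diet replicate 1, without normal diet replicate 3, and in a fit of the 2 high fat groups alone. Npc1, whose product passes cholesterol on from NPC2 in the lysosome, had -0.36 (SE 0.25, 0.396), with no overlap on the lower side. Stard4, a soluble sterol carrier gene, had -0.59 (SE 0.29, 0.228). Soat2, whose product esterifies cholesterol, was nearly flat over all 9 libraries, from 18.7 to 24.8 CPM, with a log2 fold change of 0.01 (95% interval -0.46 to 0.48).

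**Figure D3:**
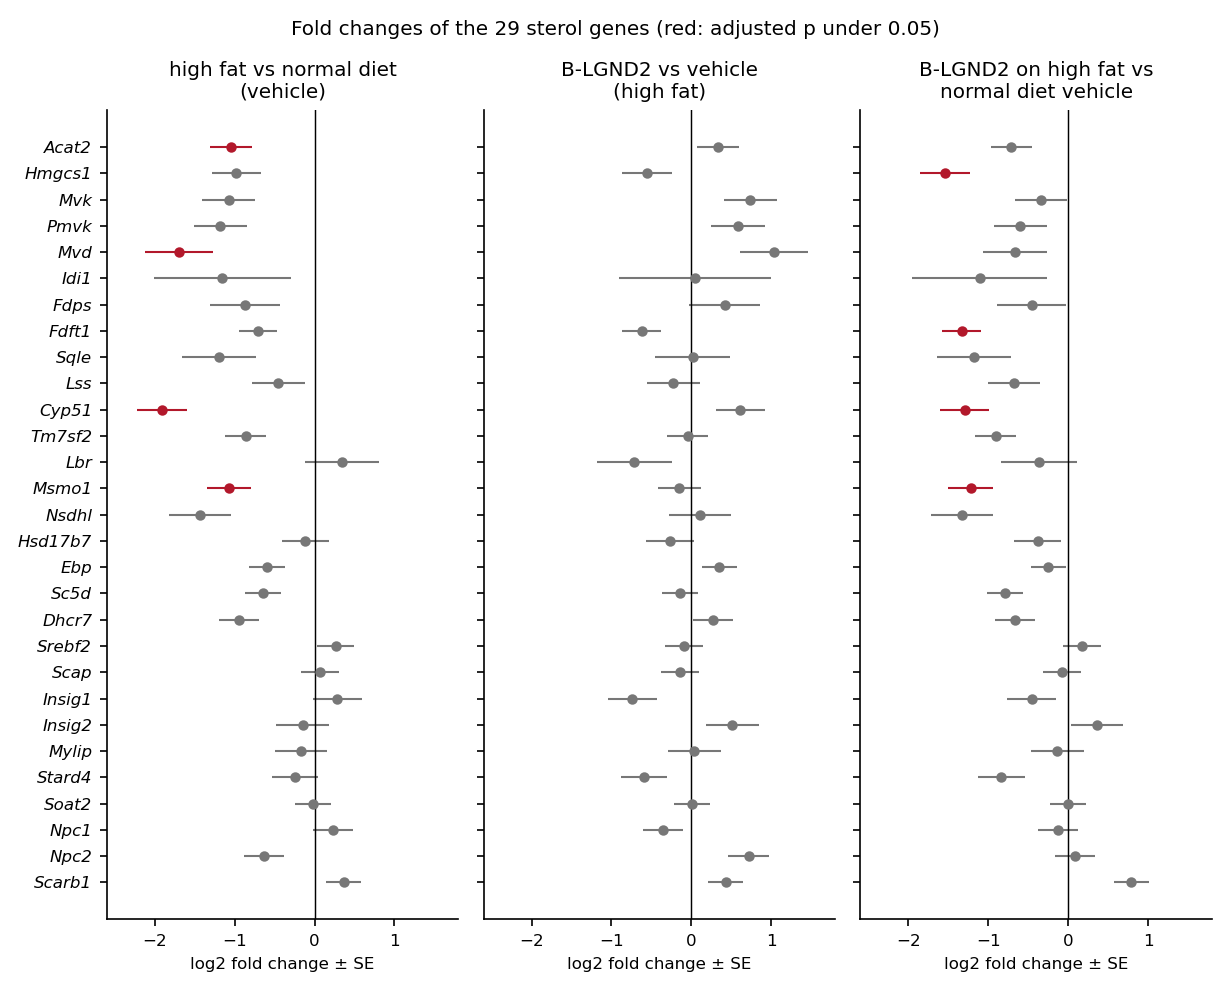
Points are log2 fold changes of the 29 genes with their SE in the 3 comparisons, in red where the adjusted p was under 0.05. Red points appear only on the lower side, 4 in the diet comparison and 4 in the comparison of B-LGND2 livers with normal diet livers, and none with B-LGND2 against vehicle.

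The third comparison sets the high fat livers with B-LGND2 against the normal diet livers with vehicle, which differ in both diet and ligand. It shares its libraries with the other comparisons. Here Hmgcs1, Fdft1, Cyp51 and Msmo1 were lower and 0 of 29 genes rose, where 1.33% of all genes fell and 1.59% rose. The log2 fold change was below 0 for 25 of 29 genes (50.5% of all genes), including all 19 synthesis genes, and the median was -0.60 against -0.01 over all genes. The groups did not overlap on the lower side for 12 genes (10% of all genes) and on the higher side for 1, Scarb1 (10.5%). At an unadjusted p under 0.05, 11 were lower (9.26% of all genes) and 1 higher (10.2%).

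Hmgcs1, which makes HMG-CoA (ENSMUSG00000093930, chr13:119690379-119708260), had 94.4, 83.7 and 75.9 CPM on the normal diet and 18.7, 36.8 and 32.1 CPM with B-LGND2. The highest B-LGND2 library was below the lowest normal diet library by a wide gap. Hmgcs1 fell 2.9-fold, from 84.7 ± 9.25 to 29.2 ± 9.42 CPM (log2 fold change -1.54, SE 0.31, adjusted p = 0.0165). Fdft1 fell 2.53-fold, from 31.8, 31.3 and 26.3 CPM on the normal diet to the 12.0, 12.7 and 10.7 CPM given above (log2 fold change -1.33, SE 0.25, adjusted p = 0.00946). The 3 Fdft1 values within each of these groups were close together. Cyp51 fell 2.46-fold, to 77.4 ± 6.10 CPM (-1.30, SE 0.31, adjusted p = 0.0309). Msmo1 had 139, 105 and 148 CPM with B-LGND2, all below the normal diet libraries, and fell 2.33-fold (-1.22, SE 0.28, adjusted p = 0.0271).

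Hmgcs1 and Fdft1 were called here but not for diet under vehicle, where they had -0.98 (adjusted p = 0.0825) and -0.71 (0.102). The difference between those values is the B-LGND2 against vehicle comparison, which called neither. Mvd and Acat2 were called for diet but not here, with -0.66 (0.375) and -0.71 (0.15). For them too the comparison of B-LGND2 with vehicle was not called (1.04 and 0.33).

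Other sterol arm genes had similar values without passing the threshold: Nsdhl -1.33 (adjusted p = 0.0836), Sqle -1.18 (0.187), Tm7sf2 -0.91 (0.0662) and Sc5d -0.79 (0.0679). Scarb1 had the highest value of the 29. It had 129, 137 and 121 CPM on the normal diet, 149, 181 and 167 CPM on the high fat diet with vehicle, and 269, 163 and 236 CPM with B-LGND2. The B-LGND2 libraries lay above all normal diet libraries, while replicate 2 lay within the vehicle range. Against the normal diet the log2 fold change was 0.79 (SE 0.22, adjusted p = 0.0605). Stard4 had 49.6, 82.8 and 106 CPM with B-LGND2 against 153, 165 and 107 CPM on the normal diet (-0.84, SE 0.29, adjusted p = 0.129). The controlling genes again held no call, from -0.46 for Insig1 (SE 0.31) to 0.36 for Insig2 (SE 0.33).

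Fdft1 was called without each of the 9 libraries in turn, and lost its call only with the ribosomal RNA share as a covariate (adjusted p = 0.449), among 21 alternatives. In this comparison 7 sterol genes were called without normal diet replicate 1, where 639 of 12377 genes were called. There was 1 without normal diet replicate 2 (111 of 12499 genes) or B-LGND2 replicate 1 (130 of 12390), and there were 2 without B-LGND2 replicate 3 (252 of 12427). Without any other single library there were 3 to 6 (221 to 235 genes), with Scarb1, higher, among the 3 without B-LGND2 replicate 2. Hmgcs1 missed the threshold without normal diet replicate 2 or B-LGND2 replicate 1 (adjusted p up to 0.0882). Msmo1 missed it without normal diet replicate 2 or any B-LGND2 library (up to 0.123), and Cyp51 without those libraries or normal diet replicate 3 (up to 0.128).

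**Figure D4:**
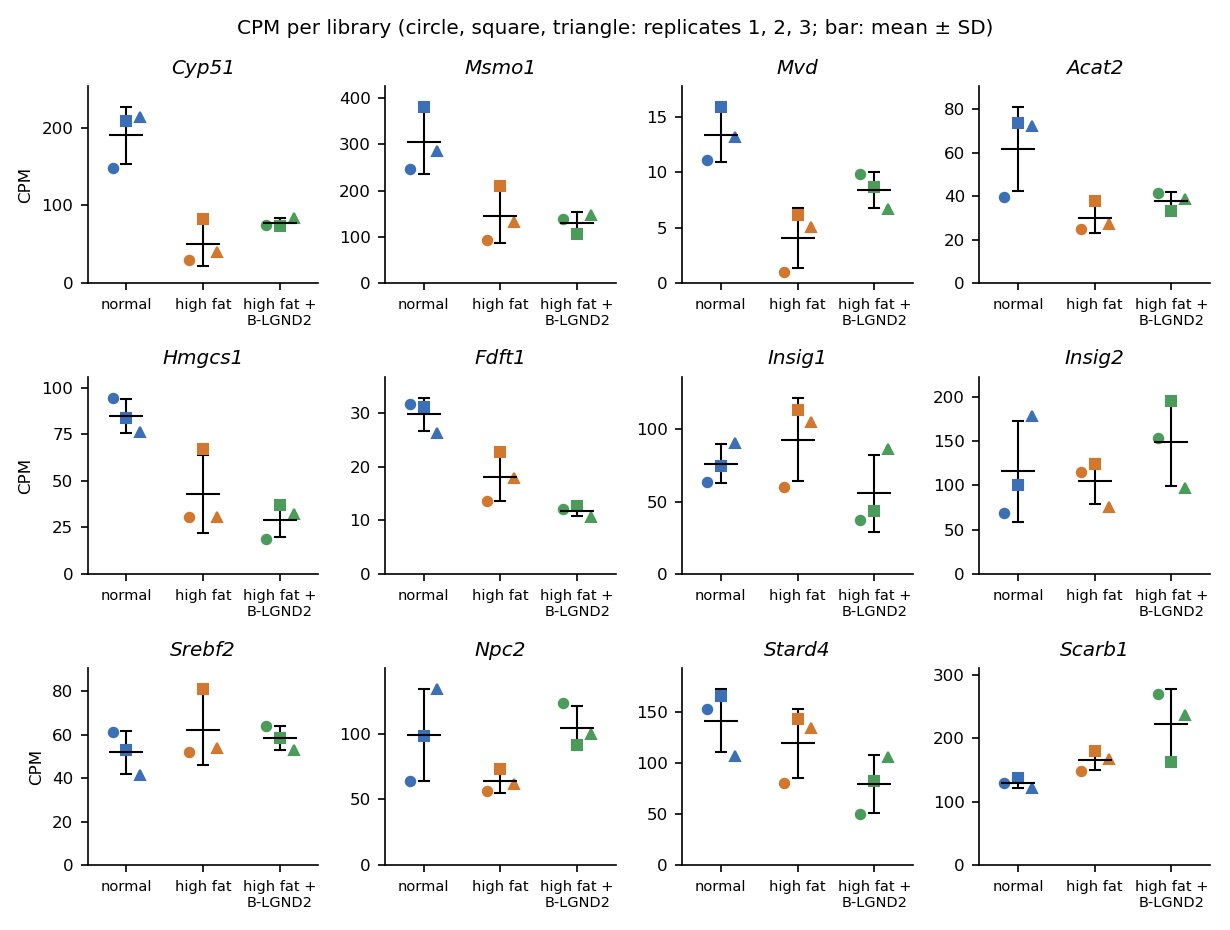
CPM of 12 sterol genes in each library, on axes from 0, with the group mean ± SD (n = 3) as bars and circle, square and triangle for replicates 1, 2 and 3. Cyp51, Msmo1, Mvd, Hmgcs1 and Fdft1 are lower in every high fat library, with or without B-LGND2, than in any normal diet library, Acat2 is so except for B-LGND2 replicate 1, and Srebf2 overlaps between all groups.

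Taking the 3 group means in order, 13 of the 29 genes (44.8%, against 17.5% of all genes tested) were highest on the normal diet, next with B-LGND2 and lowest on the high fat diet with vehicle. Among them were Cyp51, Mvd, Acat2, Mvk, Pmvk, Nsdhl, Sqle, Ebp and Dhcr7, and the rest were Fdps, Idi1, Mylip and Soat2. The order takes no account of the spread: the 3 means of Soat2 were 21.83, 21.81 and 21.59 CPM, and those of Mylip 9.88, 9.07 and 8.78 CPM. Another 8 (27.6%, against 14.7%) were highest on the normal diet and lowest with B-LGND2, among them Hmgcs1, Fdft1, Lss, Tm7sf2, Msmo1, Sc5d and Stard4. For none of these 21 genes did the 2 high fat groups differ past the threshold. Insig1, Scap, Npc1 and Lbr were highest on the high fat diet with vehicle and lowest with B-LGND2, Insig2 and Npc2 were highest with B-LGND2 and lowest on the high fat diet with vehicle, Srebf2 was highest on the high fat diet with vehicle, and Scarb1 with B-LGND2.

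Further genes of sterol and lipid metabolism were read in 5 lists. Over all genes tested, 1.5% rose and 1.49% fell with diet, and 3.07% rose and 2.56% fell with B-LGND2 against vehicle. In the third comparison 1.59% rose and 1.33% fell. At those shares a list this short would hold few calls or none. Among 12 genes of other sterol transport and storage, Tmem97, which encodes a membrane protein that binds NPC1, had 60.7, 63.7 and 70.3 CPM on the normal diet, 31.5, 36.8 and 30.4 CPM on the high fat diet with vehicle, and 89.4, 50.8 and 54.3 CPM with B-LGND2. The vehicle libraries on the high fat diet were below all 6 others. Tmem97 fell with diet (log2 fold change -0.98, SE 0.24, adjusted p = 0.0384) and rose with B-LGND2 against vehicle (0.98, SE 0.24, adjusted p = 0.0287), and both contrasts share the low group. The diet call of Tmem97 was kept in 12 of 21 alternatives and the B-LGND2 call in 14. Leaving out any of the 3 high fat vehicle libraries ended both calls (adjusted p up to 0.158 and 0.118), as did normal diet replicate 2 or 3 for the first and B-LGND2 replicate 1 for the second. No other gene of that list was called in any comparison.

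Of 8 genes of SREBP processing and sterol-regulated degradation, 0 were called in any comparison. The smallest p belonged to Rnf145, a sterol-responsive ubiquitin ligase gene, for diet (-0.71, SE 0.25, adjusted p = 0.114) and for B-LGND2 against vehicle (0.85, SE 0.25, 0.0563), and to Erlin1 in the third comparison (-0.60, SE 0.24, 0.176). Rnf145 had 15.3, 20.9 and 17.1 CPM in the high fat vehicle libraries, below the 6 others, which ran from 21.4 to 37.5 CPM. Of the isoprenoid branch genes that use farnesyl diphosphate, 8 of 9 were tested and 0 were called. The smallest p was that of Fnta, a farnesyltransferase subunit gene, for diet (-0.88, SE 0.27, adjusted p = 0.0801), Pdss2 for B-LGND2 (-0.54, 0.233) and Coq2 in the third comparison (-0.40, 0.419).

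Among 8 genes of the sterol sensor LXR and of efflux, Srebf1, which encodes the SREBP of fatty acid synthesis and is a known LXR target, rose in the third comparison. It had 195, 222 and 139.6 CPM on the normal diet, 199, 311 and 274 CPM on the high fat diet with vehicle, and 432, 332 and 394 CPM with B-LGND2. All B-LGND2 libraries were above the others. Srebf1 had a log2 fold change of 1.06 against the normal diet (SE 0.24, adjusted p = 0.0258) and 0.56 against vehicle on the high fat diet (SE 0.23, 0.155). The Srebf1 call was kept in 14 of 21 alternatives and lost without normal diet replicate 2 or 3 or B-LGND2 replicate 1 or 3 (adjusted p up to 0.0927). Abcg1, an efflux transporter gene, had the smallest p for B-LGND2 against vehicle (1.11, SE 0.34, adjusted p = 0.067), and Abcg8 the smallest for diet (0.51, SE 0.23, 0.21). Abcg1 is also expressed in macrophages, whose markers were higher in the same libraries, and their part in its value was not tested.

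Of 14 genes of fatty acid synthesis, 13 were tested. Me1, the NADPH-forming malic enzyme gene, had 48.5, 127 and 107 CPM on the normal diet and 16.8, 38.3 and 22.2 CPM on the high fat diet with vehicle, without overlap. It fell with diet (log2 fold change -1.87, SE 0.46, adjusted p = 0.0482). Acss2, the cytosolic acetyl-CoA synthetase gene, had 117, 171 and 109.5 CPM on the normal diet and 45.2, 70.5 and 69.1 CPM with B-LGND2, and fell in the third comparison (-1.11, SE 0.28, adjusted p = 0.0421). The Me1 and Acss2 calls were each kept in 12 of 21 alternatives. Me1 missed the threshold without normal diet replicate 2 or 3, any high fat vehicle library or B-LGND2 replicate 1 (adjusted p up to 0.278). Acss2 missed it without normal diet replicate 2, high fat vehicle replicate 1 or 3 or any B-LGND2 library (up to 0.174). For B-LGND2 against vehicle the smallest p was that of Gpam (-0.76, SE 0.29, adjusted p = 0.127), and 0 of 13 were called.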

How the data were processed

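Poly(A)-enriched liver RNA was made into barcoded libraries and sequenced on an Ion Torrent Proton, per the labels' protocols. The authors deposited raw read counts per gene for the 9 libraries, and the submitters' processing notes list HTSeq 0.6.1p1, DESeq2 1.6.3, SAMtools 0.1.19, Bowtie2 2.2.4, TopHat2 2.0.13 and GRCm38.p3 with no roles. Strand setting and annotation release: not given in the sources used here, so reads of overlapping genes on opposite strands may be mixed. The libraries were amplified without molecular identifiers. Total counts limit the precision of low genes.

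Symbols, coordinates (1-based gene spans) and lengths were looked up by gene ID (44671 of 45513 IDs matched) in the GENCODE M21 annotation of GRCm38. Lengths are those of all annotated exons of a gene merged, and GC content is that of its longest transcript. Promoters came from RefSeq tables on GRCm38.p6. The filter on low counts was edgeR's filterByExpr (edgeR 4.0.16, R 4.3.3, minimum count 10), which left 12102 genes. In all, 23996 had 0 counts in all libraries. All 9 libraries entered 1 quasi-likelihood fit by group, with TMM scaling and robust dispersions (6 residual degrees of freedom), from which 3 contrasts were tested, each two-sided. Each p was adjusted over all genes of its contrast, with a threshold of 0.05, and each SE was the log2 fold change over the root of F. An exact permutation test of 3 against 3 libraries was not run on single genes. The model was also run on simulated counts, and the outcome of that run is not given here. No pair of libraries agreed within sampling noise (smallest chi-square per degree of freedom 12.6 over 36 pairs).

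The members and lists were chosen with earlier results of these data known. Named were all 29 genes, with every library's value for those called and the 5 controlling genes, and of each further list the called genes (up to 4 by p) or else the gene with the smallest p; other values were picked to show the spread. One gene that this rule would name is not reported here. Alternatives were DESeq2-type size factors, library size only, no filter, the Wald test of DESeq2 1.42.0, a filter of 50 counts in 3 libraries, non-robust dispersions, limma-voom (limma 3.58.1), a replicate block, a fit of only the 2 groups in question, removal of ribosomal RNA and mitochondrial models, the ribosomal RNA share as a covariate, length and GC offsets, and each library left out.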

Additional observations from a re-analysis of the deposited data

How the results depend on the processing

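The median log2 fold change of the 29 genes kept its sign in all 21 alternatives for diet and for B-LGND2 livers against normal diet livers. No call of the 29 genes turned in direction, while values that were not called changed sign in at least 1 alternative for 10 of 25 genes with diet, 20 of 29 with B-LGND2 against vehicle and 11 of 25 in the third comparison. The 4 diet calls of the report turned to 1 with library size only, 11 with no filter, 10 with the DESeq2 Wald test, 1 with only the 2 groups compared, 2 with the replicate block (Cyp51 and Nsdhl) and 0 with the ribosomal RNA share as a covariate, and ran from 0 to 11 over the fits without 1 library. The ribosomal RNA share did not overlap between groups, so that covariate and the group cannot be told apart. The count of all genes called with diet, 362, became 1182 (no filter), 984 (DESeq2), 153 (2 groups), 203 (replicate block), 1 (covariate) and 35 to 1860 (1 library left out). For B-LGND2 against vehicle, 0 sterol genes became 1 with no filter (Insig1) and 1 with 2 groups (Npc2), and 0 to 1 with 1 library left out. Over all genes, 681 became 1345, 1123 (DESeq2), 1420 (2 groups), 2 (covariate) and 100 to 1439. The median over the 29 genes moved from 0.02 to -0.15 with library size only, 0.19 with the covariate and -0.21 to 0.27 with 1 library left out. In the third comparison 4 calls became 10 with no filter (9 lower, and Scarb1 higher) and 8 with DESeq2 (7 lower, and Scarb1 higher). They became 0 with the covariate and 1 to 7 with 1 library left out. The 354 genes called in all became 751 (no filter), 660 (DESeq2), 144 (2 groups), 12 (covariate) and 111 to 639 (1 library left out). Library size only moved the median of all genes by over 0.1 (to 0.17 for diet and -0.18 for B-LGND2 against vehicle) and split the calls into 260 higher and 98 lower for diet (182 and 180 in the report's fit) and 211 and 468 for B-LGND2 (371 and 310). Me1 changed sign for diet with the covariate (0.057), uncalled. The cause of these changes was not tested. Correlations of library deviations across genes were -0.20 to 0.13 for the same replicate number and -0.13 to 0.19 for different numbers. With 3 libraries a group these values cannot settle whether the numbers pair samples, and the labels do not say. With the replicate block the third comparison had 5 sterol genes called. Depth limits the values of low genes such as Idi1 (0 to 13 counts per library, SE 0.86 with diet), Lbr (13 to 58) and Mvd (6 to 96).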
